A study of Mus musculus with 42 samples.

Results

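The genes described here encode the heat shock proteins, the DnaJ proteins and the subunits of the CCT chaperonin. They were taken by symbol from a table of mouse embryo expression (symbols that begin with Hsp, Dnaja, Dnajb, Dnajc or Cct and a family letter or number), and 3 matching symbols that are pseudogenes or unrelated proteins were left out. The choice used no measured value. It gave 50 of 15748 genes, of which 14 carry Hsp, 30 Dnaj and 6 Cct symbols. By role they are 4 HSP70 proteins, 3 HSP110 and exchange factors, 1 HSP90, both parts of the mitochondrial chaperonin, 4 small heat shock proteins, 3 DNAJA, 9 DNAJB and 18 DNAJC proteins and 6 CCT subunits or relatives. The table used here starts at chromosome 1 and ends within chromosome 11. Members of these families beyond that point, such as the stress-inducible Hspa1a and Hspa1b, were not analysed here.

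Molecular chaperones bind proteins that are not yet folded, or that have lost their fold, and release them in cycles driven by ATP. HSP70 proteins do this together with DnaJ proteins, which bring the substrate and stimulate the ATPase, and with exchange factors, which release ADP; HSP90 acts on later folding steps. CCT is a double ring of related subunits that folds actin and tubulin, HSPD1 with its lid HSPE1 is the corresponding chaperonin of mitochondria, and small heat shock proteins hold unfolded clients without ATP. In mouse embryos, HSP70 proteins are among the first products made when the embryonic genome is activated at the 2-cell stage.

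RNA was sequenced from ICR mouse embryos, 3 embryos per library, in 9 groups with 2 samples each: untreated early 2-cell embryos (34 h after hCG, the hormone injection that triggers ovulation), untreated late 2-cell embryos (48 h) and untreated 4-cell embryos (58 h); late 2-cell and 4-cell embryos in 0.01 µM FK866; the same with 10 µM NMN; late 2-cell embryos in 10 nM TSA; and late 2-cell embryos labelled Sirt1. FK866 inhibits NAMPT, the enzyme that salvages nicotinamide for NAD+ synthesis, NMN is the product of that enzyme and restores NAD+, and TSA (trichostatin A) inhibits histone deacetylases. The Sirt1 group received siRNA, Trim21 mRNA and antibody against SIRT1, an NAD+-dependent deacetylase, by injection at the zygote stage. The labels call the control embryos untreated, while the study's methods describe the solvent DMSO as negative control for the inhibitors and scrambled siRNA with Trim21 mRNA as that for the injection. Whether the control libraries had either is not given in the labels, so the effect of solvent or injection cannot be told apart from that of the agent. The study asked how NAD+ depletion and retained histone acetylation change transcription around genome activation. The study's figure legends call the 2 replicates biological, but separate collections of embryos are not stated for the samples of a group. The p-values measure the spread between these libraries.

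The values are FPKM (fragments per kilobase of exon, scaled to the reads of a library) with 1 column per group. Of the 9 columns, 7 are sums of 2 libraries, which were separated through their whole read numbers, and those headed FK866 and FK866+NMN at the 4-cell stage hold 1 library each, which gave 16 libraries in all. In each pair below, the library with the larger read total comes first; the order links no libraries between groups. The libraries held 3169677 to 10003481 reads. The FK866+NMN libraries resembled each other least (r = 0.633 over 10497 genes, against 0.814 to 0.923 in the other pairs), and this column had 7945 genes above 0, against 7991 to 11842 in the others.

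The headers of 5 columns do not match the gene tables that accompany the study. By those tables, the column headed late 2-cell TSA is the 4-cell control, that headed late 2-cell Sirt1 is 4-cell FK866, that headed 4-cell control is 4-cell FK866+NMN, that headed 4-cell FK866 is late 2-cell TSA, and that headed 4-cell FK866+NMN is late 2-cell Sirt1. The early 2-cell column and the late 2-cell control, FK866 and FK866+NMN columns are not in dispute. For 4-cell control, FK866 and FK866+NMN, 47 of 47, 84 of 84 and 80 of 80 values equalled the column so assigned. Under their own headers 0 did. The TSA and Sirt1 tables had the signs of the single libraries for 100% and 94% of genes, the highest share of any column compared. For the columns headed TSA and Sirt1 these shares were 45.2% and 54.2%. The next highest shares were 90.9% for the TSA table, in the early 2-cell column, and 85.3% for the Sirt1 table, in the late 2-cell FK866 column. The signs thus separate the columns less sharply than the equal values do. These values favour the tables, so a comparison by the headers may not describe the groups it names. Comparisons are given by the headers and beside them by the tables, and the 5 disputed columns are called by what heads them. Transcripts of 16 genes typical of the 2-cell stage (Zscan4, Usp17l and Tdpoz families among them) summed to 159 to 744 FPKM in the libraries of the 4 undisputed columns and to 417 and 482 FPKM in the 2 single libraries headed 4-cell, but to 25.7 to 81.0 FPKM in the 6 libraries headed late 2-cell TSA, late 2-cell Sirt1 and 4-cell control. In the late 2-cell columns other than that headed Sirt1, the sums leave out a gene whose value could not be divided between the libraries.

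Sirt1 itself, the gene targeted in 1 group, was at 32.4 and 73.1 FPKM in the libraries headed Sirt1 and at 86.6 and 66.2 FPKM in the late 2-cell control (log2 difference −0.63, limma adjusted p = 0.502). It was at 11.3 FPKM in the library headed 4-cell FK866+NMN, which the tables give as Sirt1 (−2.64, adjusted p = 0.123), at 7.61 FPKM in that headed 4-cell FK866, and at 13.5 and 6.18 FPKM in early 2-cell embryos. In the other 8 libraries it lay between 53.3 and 92.3 FPKM. By this transcript, the libraries headed Sirt1 did not differ from the control beyond the spread.

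Several of these genes carry motifs of the factors that induce chaperones. RefSeq promoter windows (GRCm38.p6, 250 bases before to 50 after the start site) were matched for 42 of the 50 genes, 57 windows in all. Heat shock factors bind inverted repeats of a 5-base unit, searched here as GAANNTTC and TTCNNGAA on both strands; either was found in 17 of the 57 windows, of 15 genes, and in 15.06% of all 32851 promoter windows. The 2 spellings overlap where 3 units follow each other. Overlapping windows were counted separately, so the same matches count more than once for Hspd1 with Hspe1, for Hsph1 and for Dnajb6. The element of the endoplasmic reticulum (ER) stress response, CCAAT and CCACG with 9 bases of any kind between them, was found for 2 genes, Hspa5 and Hsp90b1, and in 0.12% of all windows. These matches describe letters, not binding. The stretches below belong to genes whose values are given further on. Hspe1 is among them for its run of matches in the promoter it shares with Hspd1, although neither gene passed the test in any comparison. Capitals mark the matches, and positions count from the start site.
Hspe1, chr1:55088044-55088091, plus strand, from −104 to −57, in the promoter shared with Hspd1: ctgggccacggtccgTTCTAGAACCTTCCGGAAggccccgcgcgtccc
Hsph1, chr5:149636273-149636384, minus strand, from −69 to 43: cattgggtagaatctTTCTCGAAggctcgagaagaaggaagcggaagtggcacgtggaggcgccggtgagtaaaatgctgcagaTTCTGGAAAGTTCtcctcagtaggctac
Dnajb6, chr5:29735837-29735879, plus strand, from −61 to −19: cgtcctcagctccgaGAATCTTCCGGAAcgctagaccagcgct
Dnaja1, chr4:40722329-40722366, plus strand, from −139 to −102: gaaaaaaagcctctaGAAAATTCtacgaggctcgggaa
Cct2, chr10:117063395-117063432, minus strand, from −57 to −20: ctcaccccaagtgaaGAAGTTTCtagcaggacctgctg
Cct6a, chr5:129787365-129787402, plus strand, from 10 to 47: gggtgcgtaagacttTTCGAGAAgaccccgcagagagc
Hspb1, chr5:135887787-135887844, plus strand, from −132 to −75: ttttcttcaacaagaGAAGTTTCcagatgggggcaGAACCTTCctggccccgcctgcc
Hspa5, chr2:34772010-34772058, plus strand, from −80 to −32, with the ER stress element: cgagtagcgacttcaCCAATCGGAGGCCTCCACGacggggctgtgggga
Hspe1 and Dnajb6 hold units that run into each other, Hspb1 holds 2 separate matches, and Cct2, Cct6a and Dnaja1 hold 1 each.

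The highest mean over the 9 columns was that of Dnaja2, a cytosolic J protein (185 FPKM), followed by Dnajb1, the main J protein partner of inducible HSP70 (88.6), Dnajb6, a J protein that holds aggregation-prone clients (85.8), Hspa8, the constitutive cytosolic HSP70 (75.5), Cct2 (73.3), Cct6a (68.9), Dnajc8, a J protein of the spliceosome (52.7), Hspe1 (47.4), Hspb1 (45.8) and Cct3 (43.8). Dnaja2 was also the steadiest of these, between 143 and 262 FPKM in all 16 libraries, and it passed the test in none of the comparisons. Hspa12b, Dnajb5, Dnajc6 and Hspb8 did not reach 1 FPKM in 2 libraries and were not tested; their highest single values were 0.977, 1.55, 1.12 and 4.25 FPKM. Of the 46 tested genes, 23 (50.0%) passed in at least 1 of the 14 comparisons, with the disputed columns counted under both assignments, and 23 in none; 38.7% of all 10657 genes tested passed in at least 1.

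**Figure D1:**
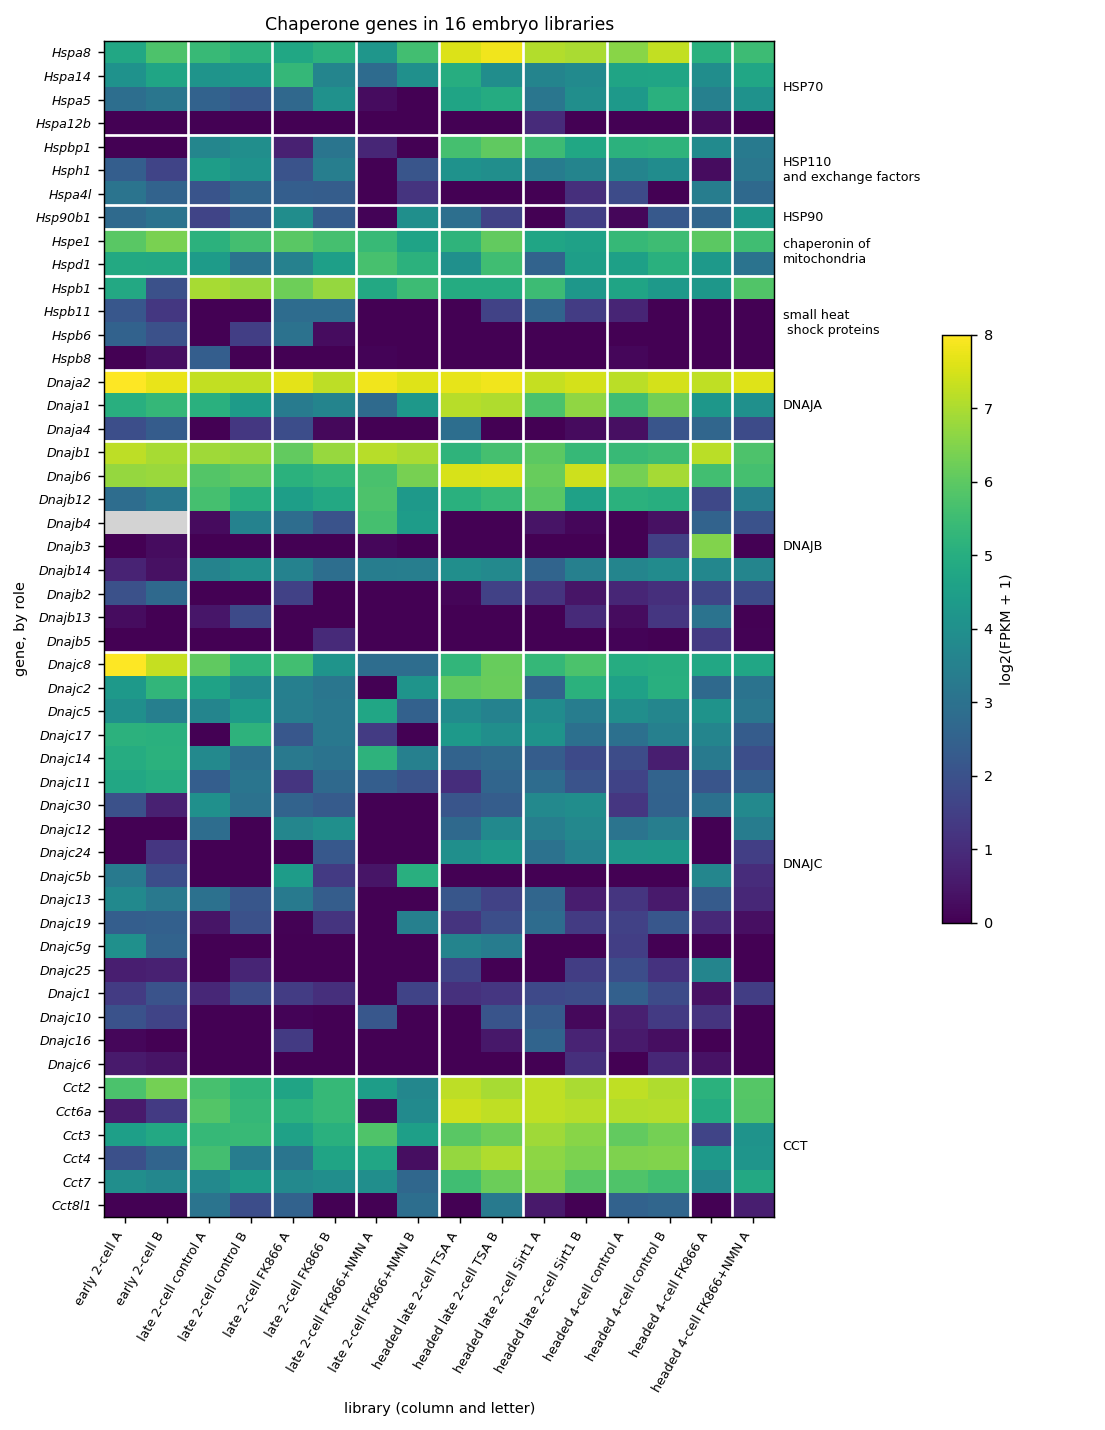
Level of each of the 50 chaperone genes (rows, grouped by role and sorted by mean) in the 16 libraries (columns), as log2(FPKM + 1) from dark (0) to yellow (8); grey marks Dnajb4 in early 2-cell embryos, whose column value could not be divided between the libraries. The rows of Hspa8, Cct2, Cct3, Cct4, Cct6a and Cct7 are brightest in the 6 libraries headed late 2-cell TSA, late 2-cell Sirt1 and 4-cell control.

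From the early to the late 2-cell stage, through the main wave of genome activation, 6 of the 45 tested chaperone genes rose and 3 fell, which is 20% of them, while 16.8% of all 10546 tested genes passed (8.88% higher and 7.9% lower). The genes that rose were Hspb1, Hspbp1, Cct6a, Dnajb12, Dnajb14 and Dnajc30. The genes that fell were Dnajc8, Dnajb2 and Dnajc5g. Both groups are 2-cell embryos, and FPKM gives a share of the reads of a library rather than an amount per embryo. The median log2 difference was −0.47 over the chaperone genes and 0 over all genes, and 31 of the 45 lay below 0.

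Hspb1, the small heat shock protein HSP27 that binds unfolded proteins and actin, was at 27.5 and 2.92 FPKM in early and at 123 and 107 FPKM in late 2-cell embryos. Its log2 difference was 3.46 ± 0.78 (SE, 2 libraries a group, limma adjusted p = 0.0122), and the early libraries themselves differed widely. Cct6a, a CCT subunit, was at 0.507 and 1.54 FPKM early and at 57.5 and 39.5 FPKM late (4.64 ± 0.90, adjusted p = 0.00546). The early libraries were almost without it.

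Hspbp1, which promotes nucleotide exchange on HSP70, had no read in either early library and 11.7 and 14.5 FPKM late (adjusted p = 0.00474). Set against a floor of 3 reads over the early group, it was at least 84.7-fold higher. Dnajb14, an ER-membrane J protein, went from 0.744 and 0.287 FPKM to 10.97 and 14.6 FPKM (3.19 ± 0.50, adjusted p = 0.00172), and its relative Dnajb12 from 6.26 and 8.18 FPKM to 49.4 and 31.2 FPKM (2.30 ± 0.59, adjusted p = 0.0225). Dnajc30, a mitochondrial J protein, went from 2.99 and 0.648 FPKM to 15.0 and 7.08 FPKM (2.15 ± 0.65, adjusted p = 0.0458); 26.2% of its exon bases lie in exons of Bud23 on the opposite strand, and whether reads were counted by strand is not given in the sources used here. Exons on the opposite strand also cover 12.5% of the exon bases of Cct6a (Psph) and 11.2% of those of Dnajb13 (Ucp2), a gene named further on. In each of the 6 genes that rose the late libraries lay above both early ones.

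Dnajc8 was at 250.97 and 157 FPKM in early embryos, where only Dnaja2 was higher among the chaperones, and at 65.5 and 34.7 FPKM late (−2.03 ± 0.55, adjusted p = 0.0285). Dnajb2, a J protein that targets clients to the proteasome, was at 2.92 and 5.73 FPKM early and without a read late (adjusted p = 0.0327), at least 65.5-fold lower against the same floor. Dnajc5g, a relative of the synaptic vesicle protein CSP, was at 15.2 and 4.87 FPKM early and without a read late (adjusted p = 0.0044), at least 58.4-fold lower. None of the 3 HSP70 proteins tested passed, nor did the mitochondrial chaperonin: Hspa8 was at 27.1 and 53.1 FPKM early and 41.3 and 34.3 FPKM late, and Hspe1 at 61.6 and 82.5 FPKM early and 34.4 and 47.4 FPKM late. Hsph1, the HSP110 exchange factor, was at 4.20 and 2.13 FPKM early and at 20.7 and 15.8 FPKM late and just missed the threshold (2.24 ± 0.73, adjusted p = 0.0608). Cct2, Cct3, Cct4 and Cct7 did not pass either.

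Leaving out 1 library left 5 calls without the larger early library, 4 without the smaller, 5 without the larger late library and 8 without the smaller. Hspbp1, Dnajb14 and Dnajc5g passed in all of these fits. Fitted on its 4 libraries alone, the comparison gave 15 calls, 6 higher and 9 lower, without Hspb1 and Dnajc30 (adjusted p = 0.0538 and 0.0744). Dnajb12 and Dnajc30 did not pass with the libraries centred on their medians.

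**Figure D2:**
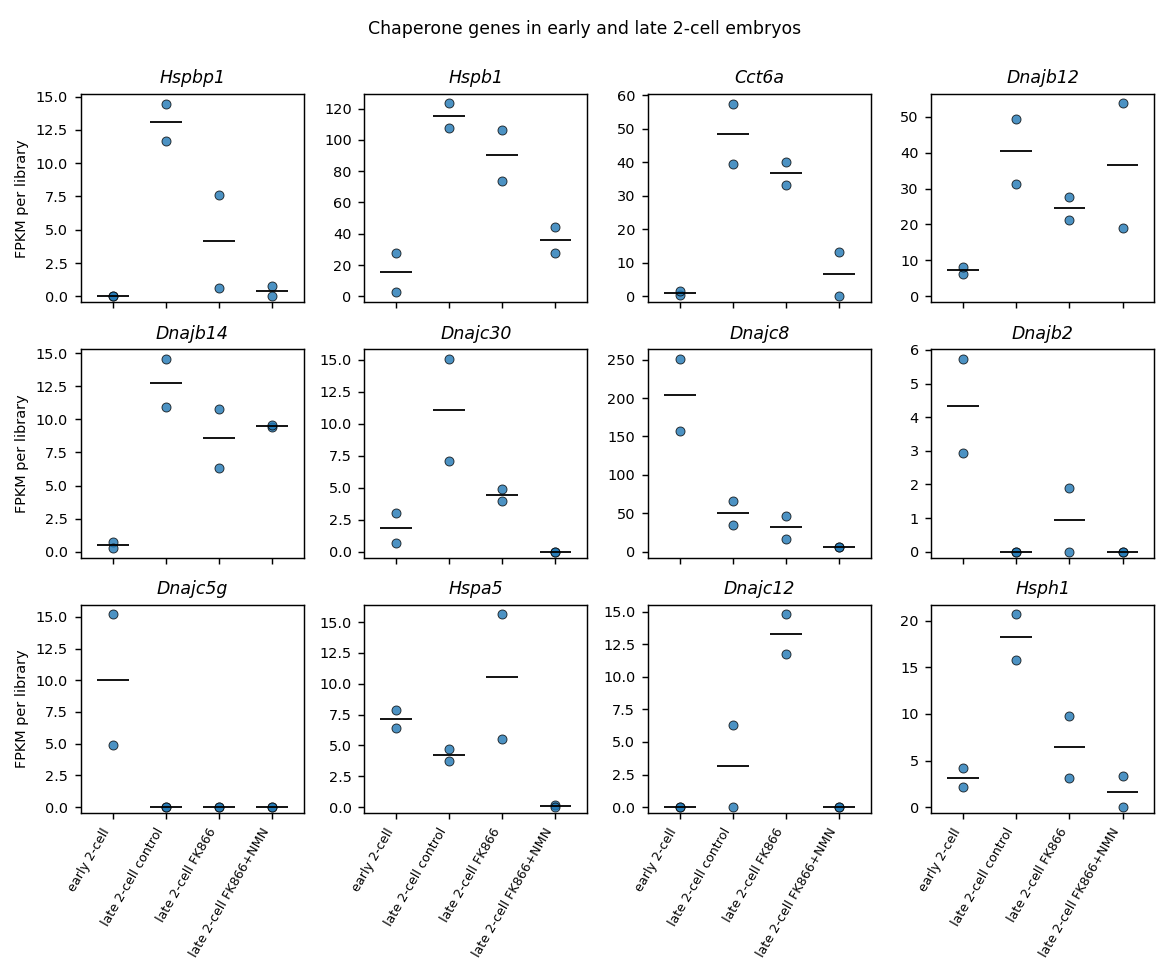
FPKM of 12 chaperone genes in the early 2-cell, late 2-cell control, FK866 and FK866+NMN libraries; each point is 1 library and each bar the mean of 2. Hspbp1, Cct6a and Dnajb14 are near 0 in the early embryos, Dnajc8, Dnajb2 and Dnajc5g are highest there, and Hspa5 and Dnajc12 are near 0 or at 0 with FK866+NMN.

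FK866 at the late 2-cell stage addressed what loss of NAD+ does while the genome is being activated. None of the 46 chaperone genes passed (limma, all 10635 genes adjusted together), where 0.376% of all genes did (0.263% higher and 0.113% lower). Of the chaperone genes, 4 were below an unadjusted p of 0.05. The share of all genes below that p is not given here. The median log2 difference was −0.21 over the chaperone genes and 0 over all. The 4 were Hspbp1, at 0.649 and 7.61 FPKM with FK866 against 11.7 and 14.5 FPKM in the control (−1.89, adjusted p = 0.431), Dnaja1, the J protein of the cytosol that acts with HSPA8, at 9.06 and 11.1 against 32.7 and 19.8 FPKM (−1.26, adjusted p = 0.575), Dnajc12, at 11.8 and 14.8 against 6.30 and 0 FPKM (2.39, adjusted p = 0.379), and Hspb11, named as a heat shock protein but a part of the ciliary transport machinery, at 6.14 and 6.12 FPKM against no read in the control (adjusted p = 0.123). In these 4 genes the groups did not overlap, as in 17 of the 46 chaperone genes; over all genes tested, 14.4% had both FK866 libraries above the control and 17.3% both below.

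The chaperones below, several of them used as signs of a folding stress, did not differ beyond the spread. The stress-inducible Hspa1a and Hspa1b were not analysed, so the absence of a stress response cannot be read from these values. Hspa5, the HSP70 of the ER, was at 5.49 and 15.6 FPKM with FK866 and 4.75 and 3.75 FPKM in the control (0.99 ± 0.57, adjusted p = 0.643). Hsp90b1, the HSP90 of the ER, was at 14.3 and 4.06 against 2.09 and 4.41 FPKM, and the mitochondrial Hspd1 at 10.4 and 21.8 against 20.0 and 7.18 FPKM. Hspb1 was at 73.8 and 106 against 123 and 107 FPKM, Hspa8 at 26.3 and 34.4 against 41.3 and 34.3 FPKM, and Dnajb1 at 67.1 and 107 against 114 and 107 FPKM. With 1 library left out, 1 gene passed without the smaller FK866 library, 1 without the larger control library, and 0 without either of the others.

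Adding NMN to FK866 left 2 of the 46 chaperone genes lower than with FK866 alone and none higher (4.35%, against 2.3% of all 10615 genes; 0.283% of all genes were higher and 2.02% lower). Hspa5 was at 0.196 and 0 FPKM with FK866+NMN (7 reads and none), against 5.49 and 15.6 FPKM with FK866 (−3.25 ± 0.57, adjusted p = 0.0183); in every other library it was at 3.75 FPKM or more. Dnajc12, a J protein that stabilizes aromatic amino acid hydroxylases, had no read in either FK866+NMN library and 11.8 and 14.8 FPKM with FK866 (adjusted p = 0.0417), at least 274-fold lower against the floor of 3 reads.

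The split of these calls depended on the scaling. Over all genes the FK866+NMN libraries had a lower median, and centring each library on its median moved the median difference of all genes by 1.31 on the log2 scale; neither gene passed then, at −1.94 for Hspa5 and −2.52 for Dnajc12, and the calls became 1 higher and 0 lower. The count was 0 when the 4 libraries were fitted alone, 5, all lower, without the smaller FK866+NMN library, 1 without the larger, and 2 without either FK866 library. The median over the chaperone genes was −0.60 and that over all genes −0.21, and 16 chaperone genes lay above 0 and 27 below.

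Against the untreated late 2-cell control, a comparison added after the data were seen, FK866+NMN embryos had 4 lower chaperone genes and none higher (8.7%, against 4.12% of all 10615 genes, 0.659% higher and 3.46% lower). Hspbp1 was at 0.812 and 0 FPKM against 11.7 and 14.5 FPKM (−3.38 ± 0.71, adjusted p = 0.0273), Hsph1 at 0 and 3.32 against 20.7 and 15.8 FPKM (−3.20 ± 0.73, adjusted p = 0.0366), and Dnajc8 at 6.33 and 6.29 against 65.5 and 34.7 FPKM (−2.74 ± 0.55, adjusted p = 0.0221). Dnajc30 had no read with FK866+NMN (adjusted p = 0.0169), at least 84.6-fold lower. Hspbp1 and Hsph1 both act at the nucleotide-exchange step of HSP70. None of the 4 passed with the libraries centred, where the median of all genes moved by 1.31 and 4 other genes were called, all higher, and none when the 4 libraries were fitted alone. Without the larger control library 1 gene passed, and without either FK866+NMN library 7 did.

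In the columns headed late 2-cell TSA, late 2-cell Sirt1 and 4-cell control, Hspa8 and 5 of the 6 CCT genes (Cct2, Cct3, Cct4, Cct6a and Cct7) were higher than in every other library. The summed level of the 6 CCT genes was 488 to 603 FPKM in these 6 libraries and 59.1 to 215 FPKM in the other 10, and that of the 4 HSP70 genes 138 to 272 FPKM against 23.6 to 86.2 FPKM. The ranges did not overlap. The share of all genes that set these 6 libraries apart in this way was not counted. Whether the pattern is particular to the chaperone genes therefore cannot be told from these values. Most of the HSP70 sum was Hspa8; Hspa14 and Hspa5 did not stand apart in this way, with 39.3 FPKM of Hspa14 in 1 late 2-cell FK866 library against 11.1 to 30.7 FPKM in the 6, and 7.80 and 14.6 FPKM of Hspa5 in the libraries headed Sirt1 against 15.6 FPKM in 1 FK866 library. Each of the 3 columns was compared with the same late 2-cell control, so the comparisons share those libraries. As given above, transcripts typical of the 2-cell stage were low in the same 6 libraries. The 8 oocyte and maternal genes in the table summed to 49.9 to 142 FPKM in them and to 206 to 422 FPKM in the other 10 libraries, and 3, 5 and 2 of the 8 fell in the columns headed 4-cell control, TSA and Sirt1. The early 2-cell sums of the oocyte and maternal genes leave out a gene whose value could not be divided between the libraries. The part of either list in the results was not tested.

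Against the late 2-cell control, the column headed 4-cell control had 3 higher chaperone genes and 1 lower (8.7%, against 8.02% of all 10639 genes, 2.78% higher and 5.24% lower). The column headed late 2-cell TSA, which the tables give as the 4-cell control, had 8 higher and 1 lower (19.6%, against 13.3% of all 10624 genes, 4.15% higher and 9.11% lower). The column headed late 2-cell Sirt1, which the tables give as 4-cell FK866, had 4 higher and none lower (8.7%, against 10.5% of all 10635 genes, 3.53% higher and 6.97% lower). Cct2 and Dnajc24 were higher in all 3 columns.

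Of the CCT subunits, Cct2 rose in all 3 columns and Cct7 in 2 of them. Cct2 was at 49.8 and 36.5 FPKM in the late 2-cell control, at 148 and 132 FPKM in the column headed 4-cell control (1.69 ± 0.41, adjusted p = 0.0307), at 146 and 122 FPKM in that headed TSA (1.62 ± 0.41, adjusted p = 0.0243) and at 149 and 125 FPKM in that headed Sirt1 (1.65 ± 0.41, adjusted p = 0.0281). Cct7 was at 12.5 and 19.5 FPKM in the control and at 45.6 and 72.2 FPKM in the column headed TSA (1.81 ± 0.50, adjusted p = 0.0381). It was at 91.0 and 59.9 FPKM in that headed Sirt1 (2.17 ± 0.50, adjusted p = 0.0221) and at 55.1 and 45.5 FPKM in that headed 4-cell control, which missed the threshold (1.62, adjusted p = 0.0787).

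Cct6a, Cct4 and Cct3 lay above both control libraries in all 3 columns without passing the test. In a single column, 19.7% to 24.3% of all tested genes lay above both. The share that did so in all 3 columns is not given here. Cct6a was at 57.5 and 39.5 FPKM in the control and at 135 to 166 FPKM in the 6 libraries, Cct4 at 47.3 and 9.43 FPKM against 84.3 to 132 FPKM, and Cct3 at 40.4 and 41.3 FPKM against 60.5 to 114 FPKM. The control libraries of Cct4 differed more from each other than those of the other subunits. Cct8l1, a relative of the CCT subunits, did not follow them, at 7.43 and 2.69 FPKM in the control and between 0 and 8.59 FPKM in the 6 libraries.

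Hspa8 was at 41.3 and 34.3 FPKM in the late 2-cell control. It was at 191 and 228 FPKM in the column headed TSA (2.44 ± 0.50, adjusted p = 0.00948) and at 133 and 127 FPKM in that headed Sirt1 (1.76 ± 0.50, adjusted p = 0.0492), where it rose, and at 94.4 and 153 FPKM in that headed 4-cell control, where it did not pass (1.65 ± 0.50, adjusted p = 0.0732). Hspa5 was at 4.75 and 3.75 FPKM in the control and rose to 18.8 and 32.6 FPKM in the column headed 4-cell control (2.31 ± 0.57, adjusted p = 0.0345) and to 24.4 and 29.3 FPKM in that headed TSA (2.41 ± 0.57, adjusted p = 0.0195). Hsp90b1, whose promoter also carries the ER stress element, was at 2.09 and 4.41 FPKM in the control and between 0 and 6.62 FPKM in the 6 libraries.

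J proteins moved both ways. Dnaja1 was at 32.7 and 19.8 FPKM in the control and at 139 and 131 FPKM in the column headed TSA (2.36 ± 0.55, adjusted p = 0.018), and Dnajb6 was at 57.1 and 64.3 against 184 and 188 FPKM (1.60 ± 0.43, adjusted p = 0.0341). Dnajc24, which takes part in the diphthamide modification of elongation factor 2 rather than in general folding, had no read in the control. It was at 17.6 and 17.9 FPKM in the column headed 4-cell control (adjusted p = 0.0091), at 14.7 and 18.9 FPKM in that headed TSA (adjusted p = 0.00562) and at 7.01 and 10.6 FPKM in that headed Sirt1 (adjusted p = 0.0215). Against the floor these were at least 86.7-fold, 82.0-fold and 42.9-fold higher. Dnajc5g, also without a read in the control, was at 11.3 and 9.28 FPKM in the column headed TSA (adjusted p = 0.00466), at least 60.0-fold higher, and at 1.79 FPKM or less in the libraries of the other 2 columns.

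Dnajb1 was the only chaperone gene that fell in any of the 3 columns. It was at 114 and 107 FPKM in the control, at 41.4 and 45.2 FPKM in the column headed 4-cell control (−1.33 ± 0.36, adjusted p = 0.048) and at 35.7 and 49.1 FPKM in that headed TSA (−1.37 ± 0.36, adjusted p = 0.029); in that headed Sirt1 it was at 62.1 and 40.0 FPKM (−1.13, adjusted p = 0.0744). Hspb1 was lower in all 6 libraries (17.7 to 43.3 FPKM against 123 and 107 FPKM) but did not pass (adjusted p from 0.0967 to 0.143).

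Centring the libraries moved the median of all genes by 0.36 for the column headed 4-cell control, 0.95 for that headed TSA and 0.51 for that headed Sirt1. With the libraries centred, Dnajb1 no longer passed in either column, and the calls were 2 higher and 0 lower for the column headed 4-cell control, 10 and 0 for that headed TSA and 4 and 0 for that headed Sirt1; Cct2 and Hspa5 were then lost for the first (adjusted p = 0.0801 and 0.0529) and Cct2 for the last (0.0524). The median log2 difference of the chaperone genes was 0.53, 0.31 and 0, against 0, −0.07 and 0 over all genes, or 0.61, 0.36 and 0 with genes that had a group without reads set at their bound. Without the larger or the smaller library of the column headed 4-cell control 1 and 0 genes passed, and without the larger or the smaller late 2-cell control library 3 and 1. For the column headed TSA these numbers were 3 and 2, and 7 and 3, and Dnajc24 and Dnajc5g passed each time. For the column headed Sirt1 they were 0 and 1, and 2 and 2.

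**Figure D3:**
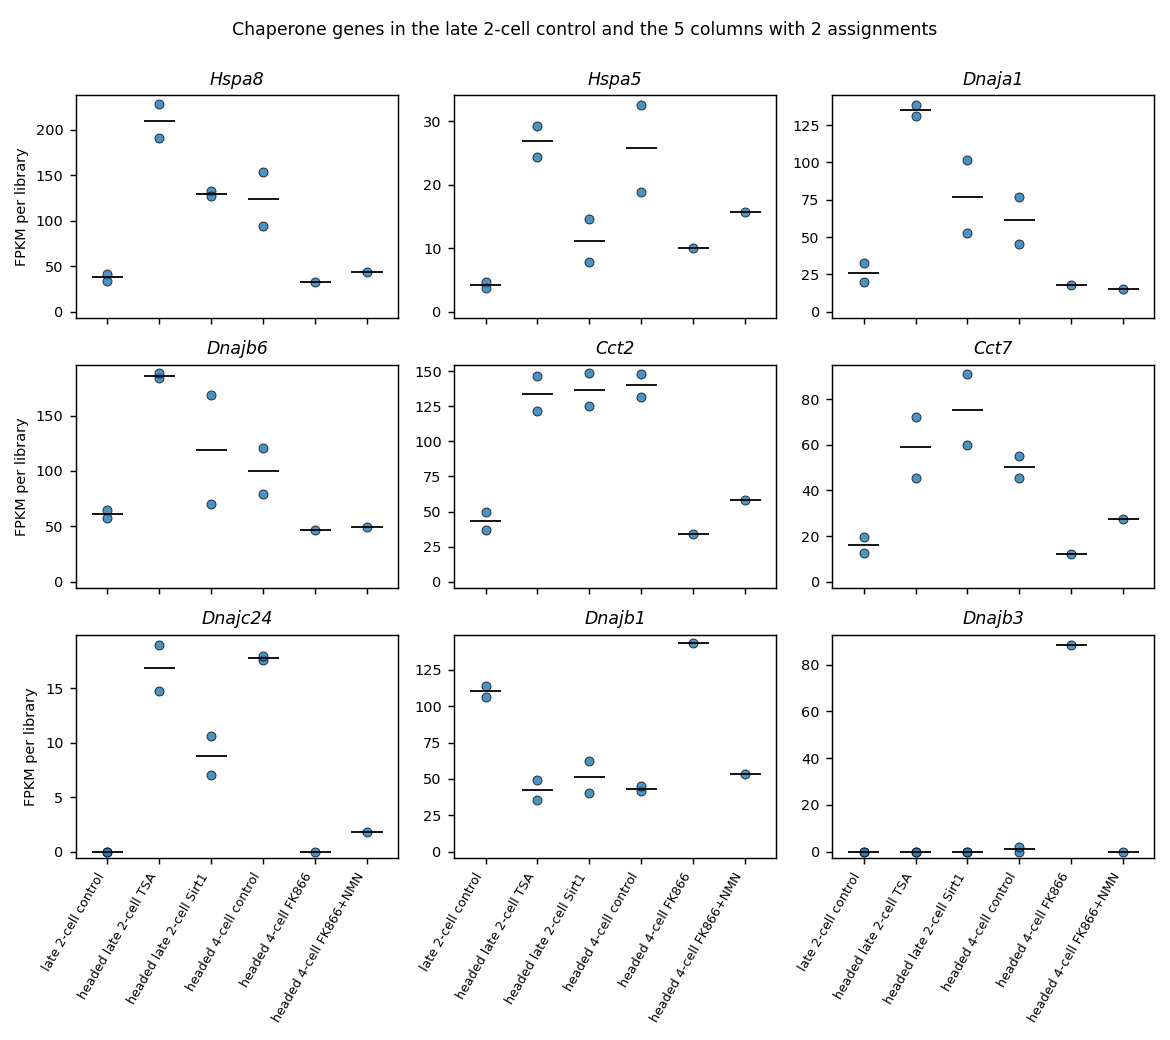
FPKM of 9 chaperone genes in the late 2-cell control and in the 5 columns whose assignment is in dispute; each point is 1 library and each bar the mean of a column, and 2 columns hold 1 library. Hspa8, Cct2, Cct7 and Dnajc24 lie above the control in the columns headed late 2-cell TSA, late 2-cell Sirt1 and 4-cell control, Dnajb1 lies below it there, and Dnajb3 is high in 1 library.

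FK866 at the 4-cell stage gave different numbers of calls under the 2 assignments, near the share of all genes in both. By the headers, 1 FK866 library was compared with 2 control libraries: 3 chaperone genes were higher and 7 lower (21.7%, against 20.5% of all 10648 genes, 12.5% higher and 8.1% lower). By the tables, no chaperone gene passed (limma, 0.141% of all 10624 genes did, 0.122% higher and 0.0188% lower) and 4 were below an unadjusted p of 0.05: Hspe1, Dnajc16, Dnajc5g and Dnajc30, with adjusted p from 0.0838 to 0.728. How many of all genes were below that unadjusted p is not given here. In the fit by the headers the single library was assumed to vary like the other groups. The tables give this library as late 2-cell TSA, so its differences may not be those of FK866.

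By the headers, Cct3 went from 66.1 and 79.1 FPKM in the column headed 4-cell control to 2.11 FPKM in that headed 4-cell FK866 (−4.56 ± 0.55, adjusted p = 0.000663). Cct2 and Cct7 were lower as well, at 33.7 FPKM against 148 and 132 FPKM and at 12.0 against 55.1 and 45.5 FPKM, followed by Hsph1, at 0.206 against 11.3 and 14.0 FPKM, and Dnajb12, at 2.35 against 33.4 and 31.1 FPKM (adjusted p from 0.0105 to 0.0456). Dnajc24 and Dnajc12 had no read, at least 38.0-fold and 60.0-fold lower. Dnajb1, at 144 against 41.4 and 45.2 FPKM, was higher (1.71 ± 0.44, adjusted p = 0.021). Dnajb13, a J protein of the sperm flagellum, was at 7.27 against 0.201 and 1.42 FPKM (2.28 ± 0.63, adjusted p = 0.0282).

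Dnajb3, a testis J protein (gene at chr1:88204732-88205782, mm10, minus strand), was at 88.2 FPKM (434 reads) in this library alone (5.72 ± 0.55 by the headers, adjusted p = 0.000307); it had 9 reads in 1 library headed 4-cell control and at most 1 read in each of the others. The same library held 130 FPKM of Hba-a1 and 81.0 FPKM of Hba-a2, alpha globin genes of red blood cells. The 7 blood and fibroblast marker genes in the table summed to 212 FPKM in it, with 4 of the 7 at 0, and to 0.308 to 39.9 FPKM in the other 15 libraries, and 5 cumulus and granulosa cell markers to 8.39 FPKM, against 0 to 5.34 FPKM. Their part in the chaperone values was not tested. Centring the libraries shifted the median of all genes by −0.64, and Dnajb1, Dnajb13 and Cct7 no longer passed; the calls were then 1 higher and 9 lower. Without the larger or the smaller control library 5 and 4 chaperone genes passed; Cct3, Dnajb12 and Dnajc24 were lower both times.

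Adding NMN at the 4-cell stage was measured in 1 library a group by the headers, so the values compare those 2 libraries and not the conditions. Dnajb3 had no read in the library headed FK866+NMN against 88.2 FPKM in that headed FK866, at least 213-fold lower. With the spread borrowed wholly from the other groups, it was the only chaperone gene past the threshold (2.17%, against 3.29% of all 10657 genes, 1.25% higher and 2.05% lower). By the tables no chaperone gene passed (limma, 0.0846% of all 10639 genes did, 0.0752% higher and 0.0094% lower) and 2 were below an unadjusted p of 0.05, Hspb11 and Dnajc30, both with an adjusted p of 1. The share of all genes below that unadjusted p is not given here. Hspa8 was at 94.4 and 153 FPKM in the column the tables give as 4-cell FK866+NMN and 133 and 127 FPKM in that of 4-cell FK866, and Cct2 at 148 and 132 against 149 and 125 FPKM.

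TSA and Sirt1 depletion at the late 2-cell stage addressed the same period with histone deacetylation impaired. By the headers these are columns described above. By the tables they are the single libraries of the 4-cell FK866 and FK866+NMN headers. The library given as TSA by the tables had 2 higher and 3 lower chaperone genes against the late 2-cell control (10.9%, against 6.58% of all 10646 genes, 3.99% higher and 2.58% lower). This single library was assumed to vary like the other groups, and it is the one with 212 FPKM of blood and fibroblast markers, whose part was not tested. Dnajb3 was without a read in the control and 88.2 FPKM here (adjusted p = 0.000368), at least 330-fold higher, and Dnajc25 was at 0 and 0.793 against 11.4 FPKM (3.21 ± 0.78, adjusted p = 0.036). Cct3 was at 40.4 and 41.3 against 2.11 FPKM (−3.75 ± 0.55, adjusted p = 0.00402), Hsph1 at 20.7 and 15.8 against 0.206 FPKM (−3.99 ± 0.89, adjusted p = 0.0253), and Dnajb12 at 49.4 and 31.2 against 2.35 FPKM (−3.59 ± 0.72, adjusted p = 0.016). Without the larger control library 2 genes passed and without the smaller 4, Cct3 and Dnajb3 both times among them. With the libraries centred, which moved the median of all genes by −0.28, there were 1 higher and 3 lower, and Dnajc25 no longer passed.

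The library given as Sirt1 by the tables had no chaperone gene that passed against the same control (limma, 0.498% of all 10646 genes did, 0.432% higher and 0.0658% lower), and 5 were below an unadjusted p of 0.05. These were Dnajb2 (1.79), Hspa5 (1.68), Cct3 (−1.28), Dnajb1 (−1.04) and Dnajb12 (−1.88, on the log2 scale), with adjusted p from 0.432 to 0.558. How many of all genes were below that unadjusted p is not given here. Hspa8 was at 43.3 FPKM, close to the 41.3 and 34.3 FPKM of the control, and Cct2 at 58.1 against 49.8 and 36.5 FPKM.

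The 23 tested genes that passed in no comparison covered every role. Hspe1 lay between 22.9 and 82.5 FPKM (median 45.5 over the 16 libraries) and its partner Hspd1 between 4.88 and 50.2 FPKM (median 21.5). Hspa14, an HSP70 of the ribosome-associated complex, lay between 5.94 and 39.3 FPKM and Dnajc2, its J protein partner, between 0 and 71.0 FPKM.

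Hsp90b1 lay between 0 and 17.8 FPKM, and the 2 late 2-cell FK866+NMN libraries themselves were at 0.0586 and 14.8 FPKM. Hspa4l, a relative of HSP110, lay between 0 and 9.40 FPKM. Dnajb4, a cytosolic J protein, was highest in the early 2-cell column, at 180.9 FPKM over its 2 libraries, which could not be divided between them. It was at 48.4 and 20.3 FPKM with FK866+NMN and at 0.175 and 10.7 FPKM in the late 2-cell control, and it passed the test in none of the comparisons it entered. Cct4 ranged from 0.222 to 132 FPKM, and its 2 late 2-cell FK866+NMN libraries were at 25.6 and 0.222 FPKM. Dnajc10, Dnajc16, Dnajc5b, Hspb6 and Hspb11 had a median below 1 FPKM, as did Cct8l1 and Dnaja4.

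**Figure D4:**
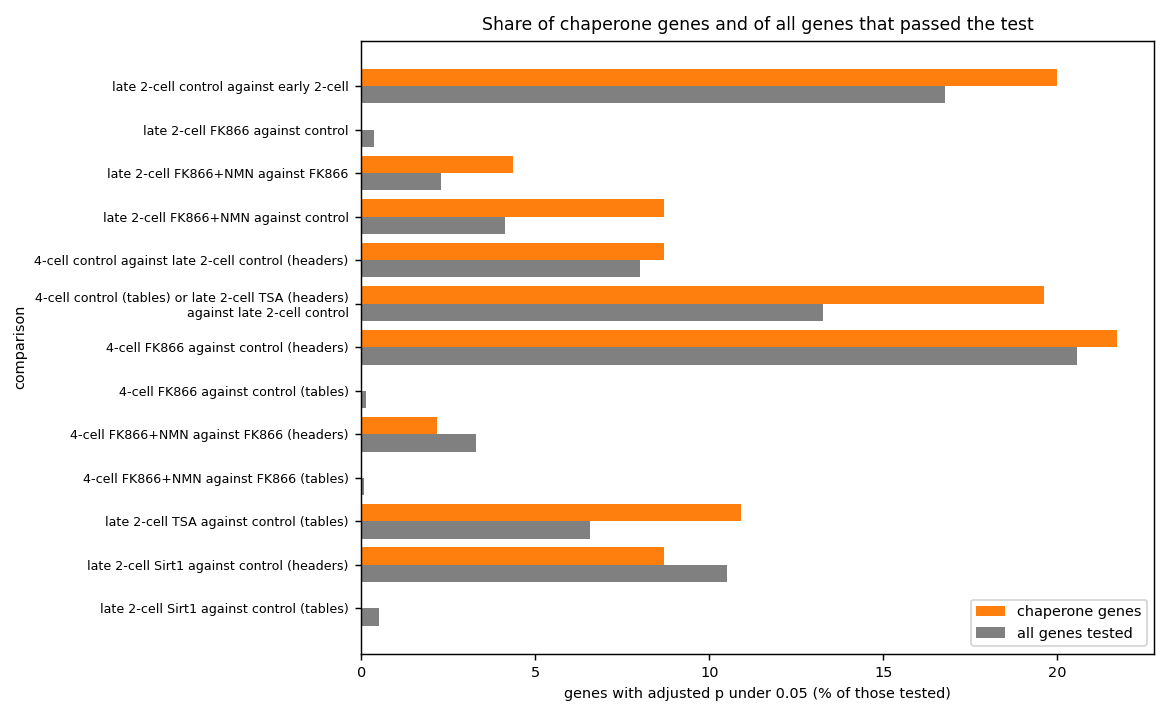
Percentage of the tested chaperone genes (orange) and of all tested genes (grey) with a limma adjusted p under 0.05 in each comparison; headers and tables name the 2 assignments of the disputed columns. The orange bars run from 0% to 21.7% and the grey ones from 0.0846% to 20.5%. In some comparisons the orange bar is the longer and in others the grey one.

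Partners of the chaperones were counted in 5 lists. From the early to the late 2-cell stage, 3 of 14 tested HSP70 and HSP90 co-chaperones rose, Fkbp4, Ppp5c and Bag3, and 1 fell, Chordc1, where 8.88% of all genes rose and 7.9% fell. Fkbp4, an HSP90 co-chaperone of steroid receptors, was at 3.30 and 3.62 FPKM early and 113 and 97.2 FPKM late (4.57 ± 0.55, adjusted p = 0.000374). Of 6 partners of CCT, Pdcl3 (−3.03, adjusted p = 0.0036) and Txndc9 (−1.80, adjusted p = 0.029) fell, both phosducin-like proteins, and none rose. None of 11 ER folding genes or 4 genes of mitochondrial protein quality control passed. Neither did the 2 tested genes of the heat shock factor list, the factor Hsf2 and Hsbp1, a protein that binds such a factor. With FK866 at the late 2-cell stage, and with FK866+NMN against FK866, no gene of the 5 lists passed.

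In the column with the TSA header, the co-chaperones Ppid and Ttc4 rose and Bag4 and Fkbp8 fell, the CCT partner Pdcl3 rose, and Hsbp1, which binds heat shock factor 1 and inhibits it, fell. Hsbp1 was at 94.5 and 71.0 FPKM in the late 2-cell control and 18.9 and 14.1 FPKM in this column (−2.26 ± 0.61, adjusted p = 0.0346), and at 4.83 and 26.8 FPKM in that headed Sirt1 (−2.70 ± 0.61, adjusted p = 0.0205). None of the 11 ER folding genes passed in either of these columns or in that headed 4-cell control, although Hspa5 did in 2 of the 3. In the library headed 4-cell FK866, 5 of the 14 co-chaperones were lower than in the column headed 4-cell control and 1 higher, where 8.1% of all genes were lower and 12.5% higher; the spread of this 1 library is that of the other groups. Fkbp4 was at 5.27 against 106 and 139 FPKM (−4.29 ± 0.67, adjusted p = 0.00243), and Ppid had no read against 24.7 and 36.0 FPKM. The same library had lower Ppid, Fkbp4 and Ppp5c and higher Pdcl3 and Herpud1 against the late 2-cell control, the comparison of TSA by the tables. FK866+NMN embryos had lower Bag1 (−4.93, adjusted p = 0.0169) and Pdia4 (−3.12, adjusted p = 0.0164) than untreated late 2-cell embryos. By the tables no gene of the 5 lists passed in the comparisons of FK866 at the 4-cell stage, of FK866+NMN with it, or of Sirt1.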

How the data were processed

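The authors aligned the RNA-seq reads with HISAT2 to mm10, counted them with featureCounts and deposited FPKM values, 1 column per group. Strand and multiply mapped reads are not given in the sources used here, so genes with pseudogene copies may share reads. Each FPKM was multiplied by exon length (GENCODE M21, or for 206 genes the length the values gave) and solved for whole reads; 98.4% to 99.8% of values above 0 had 1 solution in 1 or 2 libraries, and the separation was tested on simulated sums. The log2(FPKM + 1) of 16 libraries were tested with limma 3.58.1 (trend) in 1 fit over 9 groups, for genes at 1 FPKM in 2 libraries, with Benjamini-Hochberg adjustment over all genes and a threshold of 0.05. Fold changes on this scale understate those of low genes, and floors cover counting error only. Gene tables with the study matched the headers for 73 of 74, 118 of 118 and 81 of 82 late 2-cell values, and other headers for all 47, 84 and 80 4-cell values; the TSA and Sirt1 tables had the signs of the 2 single libraries for 100% and 94% of genes. Their fold changes were not used otherwise, nor were the H3K27ac files. Genes, lists, motifs and named genes (fixed genes, the 10 highest, the largest calls) were chosen with earlier results of these data known. Python 3.11.15 and R 4.3.3 were used.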

Additional observations from a re-analysis of the deposited data

Results flagged for a closer look

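By the headers, the difference that FK866 made at the 4-cell stage differed from the one it made at the late 2-cell stage for 5 chaperone genes, by the interaction term of the limma fit. On the log2 scale, the effect at the 4-cell stage minus that at the late 2-cell stage was 5.72 for Dnajb3 (adjusted p = 0.00263), −5.33 for Dnajc24 (0.0256), −4.0 for Cct3 (0.0116), 3.41 for Dnajb13 (0.0326) and −5.65 for Dnajc12 (0.0302). They are 10.9% of the 46 chaperone genes tested, against 7.82% of all 10630 genes. All 5 rest on the single library headed 4-cell FK866, which was assumed to vary like the other groups and also held the globin transcripts. The tables give this library as late 2-cell TSA, so these differences may not be those of FK866. With the columns read by the tables, where each group has 2 libraries, none of the 5 passed (limma adjusted p from 0.659 to 1), nor did any of all 10609 genes; 4 of the chaperone genes and 805 of all genes were below an unadjusted p of 0.05.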

How the results depend on the processing

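Of 389 alternatives for called genes, 340 kept direction and side of the threshold and 49 fell short of it, and of 193 fits without 1 library 74 and 119 did; none reversed. The cause was not tested. Comparisons are taken in the order late against early 2-cell, FK866, FK866+NMN against FK866 and against control at the late 2-cell stage, then by the headers 4-cell control, FK866, FK866+NMN, TSA and Sirt1, then by the tables (T) 4-cell control, FK866, FK866+NMN, TSA and Sirt1. Leaving out 1 library gave 4 to 8, 0 to 1, 1 to 5 and 1 to 7 calls; 0 to 3, 4 to 5, no fit, 2 to 7 and 0 to 2; and T 2 to 7, 0, 0, 2 to 4 and 0. Differences of 2-fold between columns, with no test, numbered 22, 13, 21 and 22; 19, 28, 19, 23 and 21; and T 23, 11, 8, 17 and 19; over all genes 7.15% to 33.3% passed that limit in 1 direction. Fits of the 2 groups alone gave 15 for late against early, 0 for both FK866+NMN comparisons, 8 for 4-cell control, 20 for 4-cell FK866 and 14 for TSA. With a pseudocount of 0.1, calls numbered 4 for FK866+NMN against FK866, 2 for 4-cell control, 6 for 4-cell FK866 and 3 for T TSA; with 5, 0 for FK866+NMN against FK866 and 3 for 4-cell FK866+NMN. Without a filter these last 2 gave 1 and 3; a filter of 5 FPKM gave 0 for 4-cell FK866+NMN and 3 for T TSA. Centred libraries gave 1 for FK866+NMN against FK866 and 2 for 4-cell control. Read by the tables instead, the 5 header comparisons gave 9, 0, 0, 5 and 0. Median log2 differences moved, with a pseudocount of 0.1, to −0.61, −0.89, −0.83, 0.76 and 0.57 (late against early, both FK866+NMN, 4-cell control, TSA); with 5, to −0.28, −0.21, 0.16, −0.14 and 0 (late against early, FK866+NMN against FK866, 4-cell control, FK866 and FK866+NMN); and centred, to 0.70 and 0.83 (FK866+NMN), 0.89, −0.97, 0.37, 1.26 and 0.51 (headers) and T 1.26, −0.53, −0.18 and −0.36. No paired analysis was possible because the columns carry no replicate numbers. With 1 or 2 libraries a group, differences below about the spread given were not detectable at this depth.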
